A study of Mus musculus with 24 samples.

Results

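The bone morphogenetic protein (BMP) and transforming growth factor-β (TGF-β) pathway genes described here are the ligand genes Bmp2, Bmp4, Bmp7, Tgfb1, Tgfb2 and Tgfb3, the receptor gene Bmpr1b, the antagonist genes Chrd and Fst, and the protease gene Bmp1. They were taken by symbol from the table of normalised expression values and are 10 of its 28802 genes. Retinas of wild type mice at postnatal day 28 were analysed by RNA-seq of total RNA after depletion of ribosomal RNA, with 3 libraries from each of 8 inbred strains. The strains were 129S1/Svlmj, A/J, C57BL/6J, NOD/ShiLtJ and NZO/HlLtJ, and the wild-derived CAST/EiJ, PWK/PhJ and WSB/EiJ. Form-deprivation myopia, the myopia induced by depriving an eye of patterned vision, was measured by the authors in the 8 strains, and 1 mean per strain was used here. The authors measured it at a later age than that of the retinas, and so in other mice than those sequenced. Myopia below means this trait of a strain, not the state of the sequenced eyes. From the least to the most myopia the strains ran NZO/HlLtJ, NOD/ShiLtJ, A/J, C57BL/6J, 129S1/Svlmj, PWK/PhJ, WSB/EiJ and CAST/EiJ. Values are in cpm, the reads of a gene per 1000000 reads of the library, and the libraries held 57607000 to 78150000 reads (median 68942500).

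BMPs and TGF-βs are secreted ligands that bind pairs of type I and type II receptor kinases at the cell surface. The activated receptors phosphorylate SMAD proteins, which enter the nucleus and regulate target genes such as the Id genes. Extracellular antagonists bind the ligands, and proteases release them. In the eye, these ligands are known for roles in patterning of the retina, in retinal pigment epithelium and in remodelling of the sclera.

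All 24 libraries had the RNA of rod photoreceptors, which make up most of the cells of the mouse retina: 5 rod markers summed to 3850 to 5782 cpm, with Gnat1 the most abundant of them (mean 2031 cpm). Markers of neighbouring tissues were present too. The 10 lens markers, of which Cryaa was the most abundant, summed to 1774 cpm in 129S1/Svlmj replicate 2 and 2010 cpm in NOD/ShiLtJ replicate 2. In the other libraries this sum was between 5.69 and 239 cpm (C57BL/6J replicate 2), so these libraries stand apart. The 10 markers of retinal pigment epithelium and melanocytes summed to 13.9 to 104 cpm, with Rgr the most abundant gene, and 8 sclera and fibroblast markers summed to 9.0 to 31.0 cpm, with Pdgfra the most abundant. Best1 and Lum, from these 2 lists, were listed at 0 in at least 1 library. Mueller glia markers (871 to 1187 cpm, Glul the most abundant), ganglion cell markers (145 to 258 cpm, Nefl) and endothelium and pericyte markers (118 to 146 cpm, Kdr) were present in every library. Blood cell markers (7.45 to 30.7 cpm, Hbb-bs), microglia markers (4.16 to 8.97 cpm, Csf1r) and muscle markers of iris and ciliary body (2.45 to 10.5 cpm, Myh11, with Cnn1 and Actg2 listed at 0 in at least 1 library) were lower. In bulk tissue, fewer cells of a type and less RNA per cell cannot be told apart.

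Per kilobase of exon, the TGF-β ligands Tgfb2 (3.58 cpm per kb) and Tgfb3 (1.91 cpm per kb) were the most abundant members, taken as the mean of 24 libraries. Bmp7 (0.853 cpm per kb), Bmpr1b (0.740 cpm per kb) and Bmp1 (0.562 cpm per kb) followed. Chrd and Bmp4 were at 0.180 and 0.175 cpm per kb, Bmp2 at 0.0657 cpm per kb, and Fst and Tgfb1 at 0.0350 and 0.0280 cpm per kb. The ligands of each family thus spanned a wide range: Tgfb1 was the lowest member and Tgfb2 the highest. Of the 10 members, 6 had a mean of at least 0.5 cpm and were tested with 16400 genes, and Bmp2, Bmp4, Tgfb1 and Fst were below this level.

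In limma's moderated F-test, 6 of 6 members tested had strain differences (q under 0.01), against 97.2% of all genes tested. The Benjamini-Hochberg adjusted p-value, which called 70.6% of all genes, called 5 of the 6 and not Bmpr1b (adjusted p = 0.0214). Differences between strains were thus the rule in this table, and the members' share was near that of all genes. In the comparison of each strain with the mean of the other 7 strains, 16 of the 48 pairs of a member and a strain were called. By strain, 4 of 6 members were called in WSB/EiJ (34.5% of all genes), 3 in CAST/EiJ (49.4%), 3 in PWK/PhJ (49.4%), 2 in C57BL/6J (22.6%), 2 in NOD/ShiLtJ (24.0%) and 2 in NZO/HlLtJ (25.9%). None of the 6 was called by limma in 129S1/Svlmj (27.5%) or A/J (27.7%), with 1 member in each at an unadjusted p under 0.05. The Benjamini-Hochberg p-value called 14 of the 16 pairs, and the others are named with their genes.

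**Figure D1:**
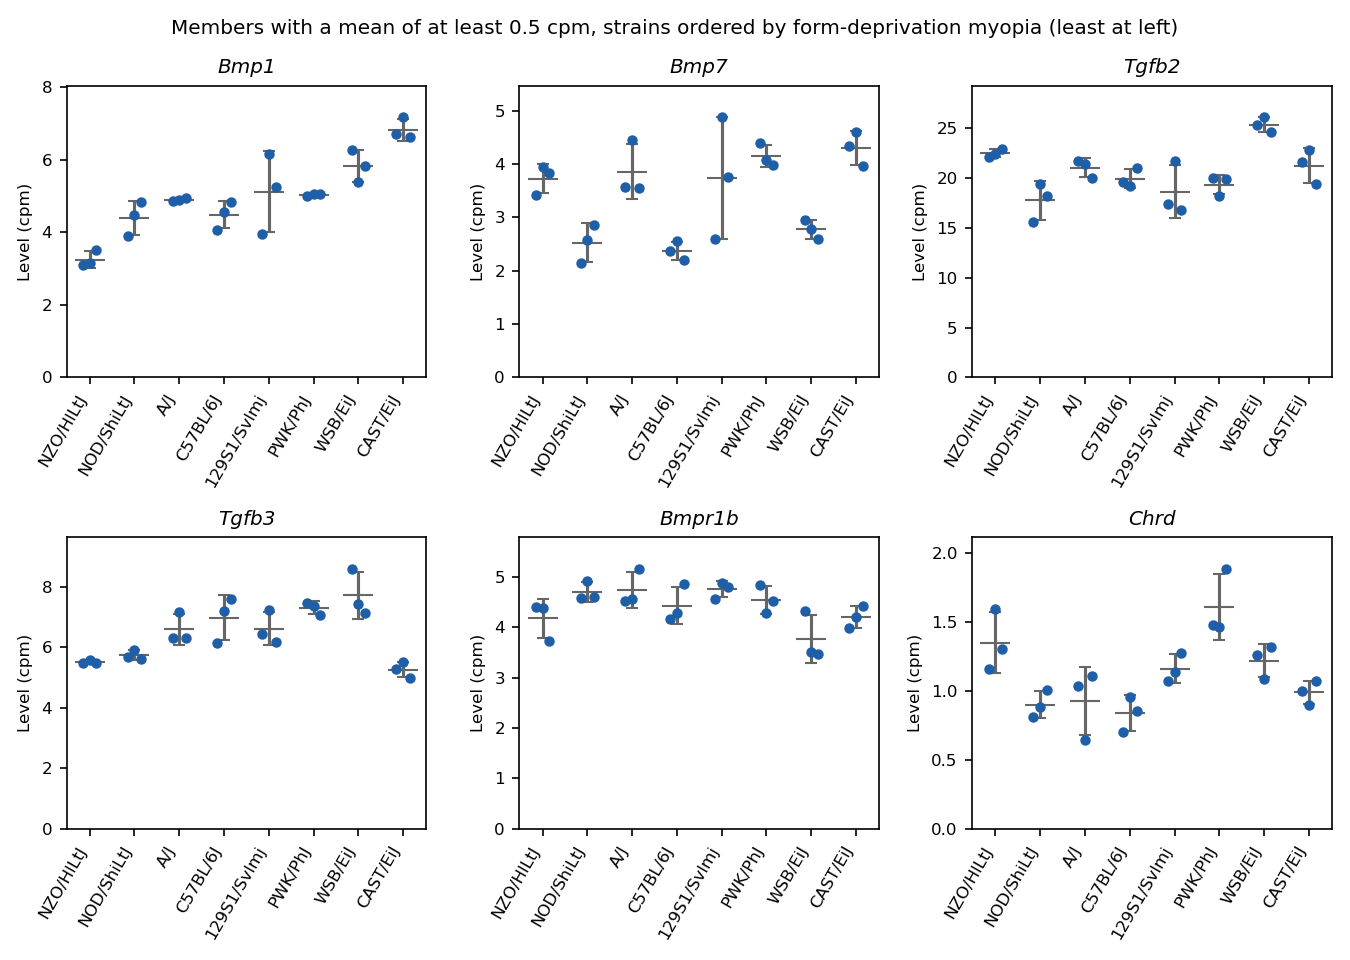
Levels in cpm of the 6 members tested, with the strains on the horizontal axis from the least to the most form-deprivation myopia. Points are the 3 libraries of a strain, horizontal lines the mean and bars the SD (n = 3); Bmp1 runs from 3.25 cpm in NZO/HlLtJ to 6.83 cpm in CAST/EiJ, and the other members follow other orders.

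Bmp7 encodes a BMP ligand (chromosome 2 of GRCm38 from 172868012 to 172940321, minus strand). It was at 4.34, 4.60 and 3.97 cpm in CAST/EiJ, 4.39, 4.08 and 3.99 cpm in PWK/PhJ, 3.41, 3.94 and 3.83 cpm in NZO/HlLtJ, and 3.56, 4.45 and 3.54 cpm in A/J. Lower values were found in WSB/EiJ (2.94, 2.79 and 2.59 cpm), NOD/ShiLtJ (2.14, 2.58 and 2.86 cpm) and C57BL/6J (2.36, 2.55 and 2.20 cpm). The libraries of the first 4 of these strains did not overlap with those of the last 3. The libraries of 129S1/Svlmj were spread over both ranges, at 2.58, 4.88 and 3.75 cpm, and the highest was the library rich in lens markers. Without it the strain's mean was 3.17 instead of 3.74 cpm. On the log2(cpm + 1) scale, on which all differences below are given and which understates changes of low genes, Bmp7 was lower in C57BL/6J than in the other strains by a difference of -0.42 ± 0.09 (SE; q = 0.000453) and in NOD/ShiLtJ (-0.35 ± 0.09, q = 0.00195). It was higher in CAST/EiJ (0.32 ± 0.09, q = 0.00125) and PWK/PhJ (0.28 ± 0.09, q = 0.00365). The last call did not hold with the Benjamini-Hochberg p-value (0.0133) or without any 1 of its own libraries (q = 0.0103 to 0.0271), the call in NOD/ShiLtJ ended without its replicate 1 (q = 0.0402), and that in CAST/EiJ without its replicate 2 (q = 0.0115). Without 129S1/Svlmj replicate 1, Bmp7 was also called in 129S1/Svlmj (0.29, q = 0.00444) and, as without its replicate 2, in WSB/EiJ (q = 0.00136 and 0.00823).

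Bmp2 (chromosome 2 from 133552159 to 133562885, plus strand) and Bmp4 (chromosome 14 from 46383520 to 46390669, minus strand) encode closely related BMP ligands. Bmp2 had a median of 11.5 reads and Bmp4 of 18.5 reads per library, which gives counting errors of about 29.5% and 23.2%. Bmp4 was at 0.20, 0.81 and 1.06 cpm in A/J, 0.21, 0.84 and 0.83 cpm in 129S1/Svlmj, and 0.58, 0.49 and 0.79 cpm in C57BL/6J, and at 0.059, 0.14 and 0.11 cpm in NZO/HlLtJ. Bmp2 was at 0.10, 0.40 and 0.51 cpm in A/J, 0.16, 0.50 and 0.40 cpm in 129S1/Svlmj, 0.42, 0.38 and 0.49 cpm in C57BL/6J, and 0.044, 0.043 and 0.11 cpm in NZO/HlLtJ, where the first 2 libraries held 3 reads each. Both genes were highest on average in these first 3 strains and lowest in NZO/HlLtJ, and each neighbouring pair of strains in the order of the means overlapped. In A/J and in 129S1/Svlmj, replicate 1 was the lowest for both genes. The highest 129S1/Svlmj library of both was the one rich in lens markers, without which the strain's means were 0.281 instead of 0.353 cpm for Bmp2 and 0.521 instead of 0.627 cpm for Bmp4. The summed markers of retinal pigment epithelium and melanocytes were 41.3, 73.4 and 89.6 cpm in the A/J libraries and 56.5, 65.9 and 53.9 cpm in those of 129S1/Svlmj. The sclera and fibroblast markers were 21.2, 31.0 and 22.5 cpm, and 10.5, 26.0 and 15 cpm, in the same order. The sclera and fibroblast markers were 19.6, 17.0 and 18.6 cpm in C57BL/6J and 10.5, 9.30 and 11.6 cpm in NZO/HlLtJ, and those of retinal pigment epithelium 48.6, 24.7 and 47.2 cpm, and 21.7, 25.8 and 16.5 cpm. In other strains the summed markers and the levels parted. WSB/EiJ had the highest mean of the markers of retinal pigment epithelium (104, 62.3 and 68.0 cpm) with 0.291 cpm of Bmp4. NOD/ShiLtJ had 24.1, 27.3 and 18.4 cpm of sclera and fibroblast markers, a higher mean than C57BL/6J, with less Bmp2 (0.245 cpm) and Bmp4 (0.420 cpm). Of these markers only Fmod had a lower mean in NOD/ShiLtJ than in C57BL/6J. Ogn was at 0.604, 6.46 and 0.739 cpm in NOD/ShiLtJ, highest in the library rich in lens markers. Ogn was at 2.28, 2.03 and 2.47 cpm in C57BL/6J, 0.302, 2.04 and 1.87 cpm in A/J, and 0.553, 6.93 and 2.47 cpm in 129S1/Svlmj. Col3a1, Dcn, Lum and Pdgfra were instead lowest in replicate 3 of A/J. The part of either tissue in the levels of Bmp2 and Bmp4 was not tested. With no limit on the mean, Bmp2 was called higher in C57BL/6J (0.25 ± 0.07, q = 0.00536) and lower in NZO/HlLtJ (-0.23 ± 0.07, q = 0.00907), and no single strain was called for Bmp4 (q = 0.0136 at the lowest, in NZO/HlLtJ). The F-test with no limit on the mean called both genes as different between strains (Bmp2 q = 0.000317, unadjusted p = 0.00115; Bmp4 q = 0.000786, unadjusted p = 0.00319), against 68.5% of the 28802 genes in that fit.

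**Figure D2:**
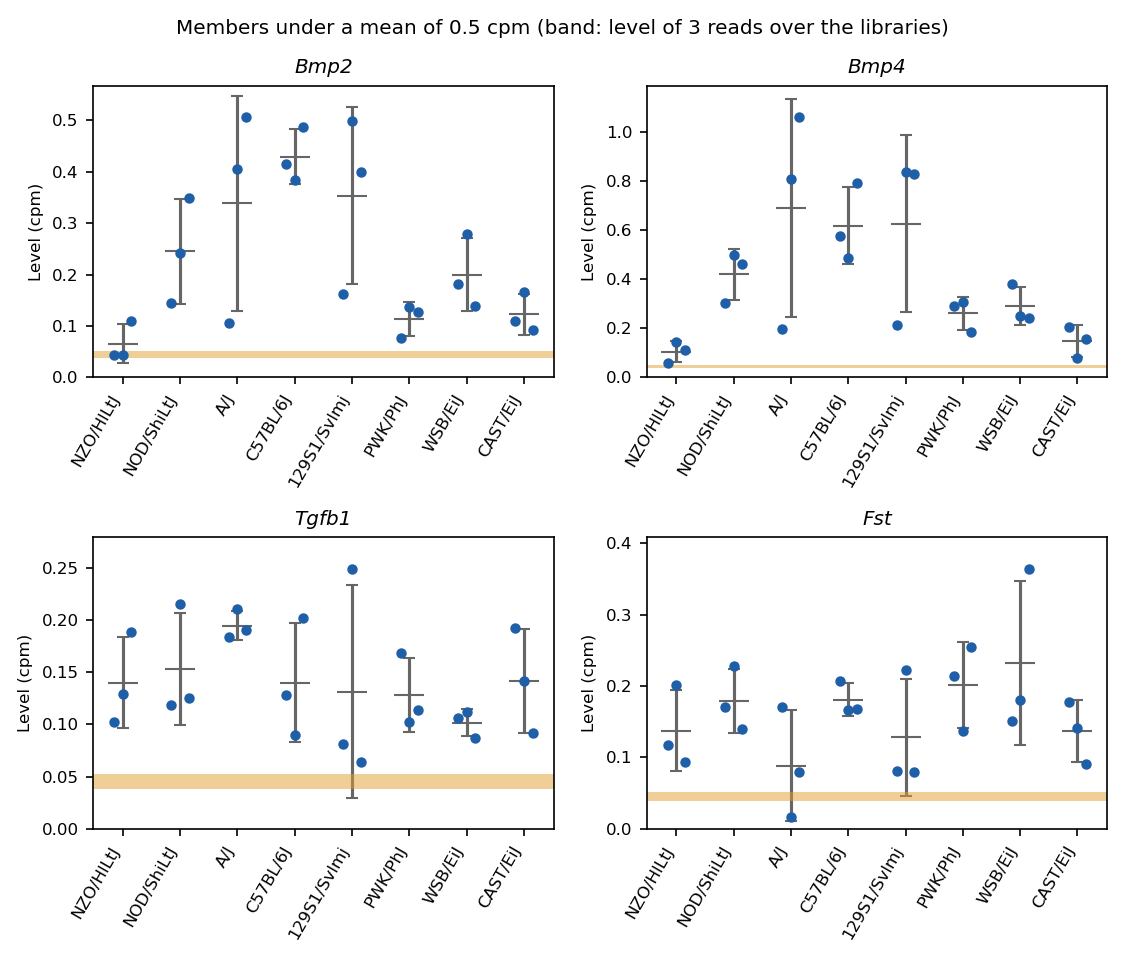
Levels in cpm of the 4 members under a mean of 0.5 cpm, with strains in the same order of form-deprivation myopia. Points are the 3 libraries of a strain, horizontal lines the mean, bars the SD (n = 3) and the band the level of 3 reads (0.0384 to 0.0521 cpm); Bmp2 and Bmp4 are highest on average in A/J, C57BL/6J and 129S1/Svlmj.

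Tgfb2 encodes the TGF-β ligand with the highest level here (chromosome 1 from 186622792 to 186705989, minus strand). It was at 25.3, 26.1 and 24.6 cpm in WSB/EiJ and 22.1, 22.5 and 22.9 cpm in NZO/HlLtJ, with 15.6, 19.4 and 18.2 cpm in NOD/ShiLtJ and 17.4, 21.7 and 16.8 cpm in 129S1/Svlmj. All libraries of WSB/EiJ were above all other libraries, and from NZO/HlLtJ down each strain overlapped with the next in the order CAST/EiJ, A/J, C57BL/6J, PWK/PhJ, 129S1/Svlmj and NOD/ShiLtJ. The difference from the other strains was 0.33 ± 0.06 in WSB/EiJ (q = 5.13e-05) and -0.24 ± 0.06 in NOD/ShiLtJ (q = 0.00185). The second call ended without NOD/ShiLtJ replicate 1 (q = 0.0585). The highest library of NOD/ShiLtJ and that of 129S1/Svlmj were the 2 libraries rich in lens markers. Without both of them Tgfb2 was also called lower in 129S1/Svlmj (-0.27, q = 0.000463) and higher in NZO/HlLtJ (0.17, q = 0.00406). The 129S1/Svlmj call also appeared without NOD/ShiLtJ replicate 1 (q = 0.00653) or CAST/EiJ replicate 3 (q = 0.00885). Leaving out only 129S1/Svlmj replicate 2 gave both calls (q = 0.000624 and 0.00902).

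Tgfb3 encodes a TGF-β ligand (chromosome 12 from 86056745 to 86079041, minus strand). It was at 8.59, 7.42 and 7.12 cpm in WSB/EiJ, 7.47, 7.37 and 7.07 cpm in PWK/PhJ, 5.49, 5.56 and 5.49 cpm in NZO/HlLtJ, and 5.29, 5.51 and 4.99 cpm in CAST/EiJ. C57BL/6J, 129S1/Svlmj and A/J lay between, at means of 6.98, 6.61 and 6.59 cpm, and overlapped with each other (129S1/Svlmj at 6.31 cpm without its library rich in lens markers). NOD/ShiLtJ (5.68, 5.92 and 5.61 cpm) lay below all libraries of A/J and above all of NZO/HlLtJ. The calls were higher levels in WSB/EiJ (0.26 ± 0.06, q = 0.000209) and PWK/PhJ (0.19 ± 0.06, q = 0.00183) and lower levels in CAST/EiJ (-0.28 ± 0.06, q = 5.56e-05) and NZO/HlLtJ (-0.21 ± 0.06, q = 0.00209). Wild-derived strains thus held both the highest and the lowest mean of Tgfb3. The call in NZO/HlLtJ ended without any 1 of its libraries (q = 0.0116 to 0.0160), and that in PWK/PhJ without its replicate 1 (q = 0.0147) or 2 (q = 0.0111). Tgfb3 was also called lower in NOD/ShiLtJ without C57BL/6J replicate 1 (q = 0.00642) and with median-ratio scaling (q = 0.00288) or quantile normalisation (q = 0.00106). Of its exon bases, 12.4% lie opposite exons of Gm37804 and Gm48008 in GENCODE M21. The libraries were made with a stranded kit and counted with the RefSeq annotation. Since the sources used here do not state whether reads were counted by strand, reads of these genes cannot be told apart from its own.

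Tgfb1, on chromosome 7 from 25687002 to 25705077 (plus strand), encodes a TGF-β ligand that other tissues use widely. Its levels were 0.0639 to 0.249 cpm with a median of 9 reads, and its strain means lay between 0.102 cpm in WSB/EiJ and 0.195 cpm in A/J. The highest library was 129S1/Svlmj replicate 2, rich in lens markers, and without it that strain's mean was 0.0727 instead of 0.131 cpm and the lowest of all. That of NOD/ShiLtJ was 0.122 instead of 0.153 cpm without its own such library. All neighbours in the order of the strains overlapped, and no difference was detectable at this depth (q = 0.0724 and unadjusted p = 0.539 in the F-test with no limit on the mean).

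Bmpr1b encodes a type I receptor for BMPs (chromosome 3 from 141837136 to 142169425, minus strand). Its strain means had the narrowest range of the 10 members, from 3.77 ± 0.48 cpm (SD, n = 3) in WSB/EiJ to 4.75 ± 0.16 cpm in 129S1/Svlmj, a ratio of 1.26. The libraries of WSB/EiJ were at 4.32, 3.51 and 3.47 cpm, and every neighbouring pair of strains in the order of the means overlapped. Bmpr1b was called only in WSB/EiJ, where it was lower by a difference of -0.21 ± 0.06 (q = 0.00189). The call ended without WSB/EiJ replicate 2 (q = 0.0222) or 3 (q = 0.0287).

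Chrd encodes chordin, an antagonist that binds BMPs outside the cell (chromosome 16 from 20733127 to 20742384, plus strand). It was at 1.48, 1.47 and 1.89 cpm in PWK/PhJ and 1.16, 1.60 and 1.30 cpm in NZO/HlLtJ, and at 0.70, 0.96 and 0.86 cpm in C57BL/6J and 0.81, 0.89 and 1.00 cpm in NOD/ShiLtJ. The libraries of PWK/PhJ overlapped with those of NZO/HlLtJ only and were above those of the other strains. Chrd was called higher in PWK/PhJ (0.35 ± 0.07, q = 4.58e-05) and lower in C57BL/6J (-0.23 ± 0.07, q = 0.00700). The second call did not hold with the Benjamini-Hochberg p-value (0.0143), with no limit on the mean (q = 0.0129), or without C57BL/6J replicate 1 (q = 0.0684) or 3 (q = 0.0253). Without A/J replicate 2, the lowest library of all at 0.65 cpm, Chrd was also called lower in NOD/ShiLtJ (q = 0.00967). A share of 3.82% of its exon bases lies opposite Thpo. Smaller or similar shares were found for Bmp4 (3.96%, Gm15217), Fst (2.51%, Gm47040) and Tgfb2 (2.14%, Gm29491).

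Fst encodes follistatin, an antagonist that binds activins and some BMPs (chromosome 13 from 114452290 to 114458951, minus strand). Its levels were 0.0163 to 0.365 cpm with a median of 12 reads, and A/J replicate 2, at 1 read, was below the level of 3 reads. The highest strain mean was 0.232 ± 0.12 cpm in WSB/EiJ and the lowest 0.0887 ± 0.08 cpm in A/J, with overlap between all neighbours. Without the library rich in lens markers (0.223 cpm), the mean of 129S1/Svlmj was 0.0806 instead of 0.128 cpm, and this strain was the lowest. No difference was detectable at this depth (q = 0.0255 and unadjusted p = 0.161 in the F-test with no limit on the mean).

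Bmp1, despite its name, encodes a secreted metalloprotease that cleaves procollagens and chordin and so can free BMPs (chromosome 14 from 70474558 to 70520234, minus strand). It was at 3.09, 3.15 and 3.51 cpm in NZO/HlLtJ, 3.89, 4.49 and 4.83 cpm in NOD/ShiLtJ, 4.88, 4.91 and 4.94 cpm in A/J, and 4.07, 4.57 and 4.83 cpm in C57BL/6J. In the strains with more myopia it was at 3.95, 6.17 and 5.25 cpm in 129S1/Svlmj, 5.00, 5.05 and 5.07 cpm in PWK/PhJ, 6.27, 5.40 and 5.83 cpm in WSB/EiJ, and 6.70, 7.18 and 6.62 cpm in CAST/EiJ. All libraries of NZO/HlLtJ were below and all of CAST/EiJ above those of every other strain. WSB/EiJ overlapped with 129S1/Svlmj, and 129S1/Svlmj with PWK/PhJ. A/J lay just below PWK/PhJ with no overlap and above C57BL/6J, which overlapped with NOD/ShiLtJ. The mean of CAST/EiJ was 2.10 times that of NZO/HlLtJ. Against the other strains the difference was 0.47 ± 0.07 in CAST/EiJ (q = 2.42e-06), -0.54 ± 0.07 in NZO/HlLtJ (q = 1.39e-06) and 0.24 ± 0.07 in WSB/EiJ (q = 0.00332). The call in WSB/EiJ ended without its replicate 1 (q = 0.0295) or 3 (q = 0.0170). The highest library of 129S1/Svlmj was again the one rich in lens markers, and without it the strain's mean was 4.60 instead of 5.12 cpm.

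To ask which members follow susceptibility to myopia, the log2 values of the 24 libraries were regressed on the strain means of form-deprivation myopia. Of the 6 members tested, 1 was associated at q under 0.01, against 10.9% of all genes (1793 of 16400), and it was positive, against 3.96% positive and 6.97% negative among all genes. With median-ratio scaling the share of positive genes among those called was 47.6%, and with quantile normalisation 46.8%, instead of 36.3%. The associated member was Bmp1, which rose by 0.0665 ± 0.0068 (SE) per diopter of myopia (q = 1.27e-06). Its slope was 0.0662 without the 2 libraries rich in lens markers (q = 2.85e-06), and between 0.0649 and 0.0676 when each strain was left out, with q at most 0.000226. Within the 5 strains that are not wild-derived it was 0.0647 (q = 0.00515). Both the strain with the lowest and the one with the highest level of Bmp1 could therefore be left out with little change of its slope.

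The 3 libraries of a strain share 1 value of myopia, so the relation was also tested over the 8 strain means. Pearson's r of Bmp1 was 0.981 (p = 0.000198 in an exact two-sided permutation test over all orders of the 8 strains) and Spearman's rank correlation was 0.952 (exact p = 0.00114). Without NZO/HlLtJ and CAST/EiJ, the 2 strains farthest from the median of myopia, r was 0.878. Adjusted by the Benjamini-Hochberg method over the 16400 genes tested, these p-values were 0.651 and 0.398, and no gene of the table passed 0.05 for r, while 1174 genes had an unadjusted p under 0.05. With 8 strains this adjustment cannot call a gene alone. For r the smallest possible permutation p gives 0.407 for a single gene of 16400, and 9 genes would have to share it to reach 0.05. For Spearman's correlation the smallest possible p is larger, since the reversed order gives the same absolute value. Bmp1 was not called when strain was a random effect (q = 0.0187 in limma) or when limma was fitted to strain means (q = 0.261), a fit that called 0 of 16400 genes, with 1446 at an unadjusted p under 0.05. The association of Bmp1 therefore passed the threshold over all genes with libraries as replicates, and not in the 2 limma fits that treat strains as replicates.

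The other members tested were not associated with form-deprivation myopia (q = 0.283 to 0.472). Their slopes were 0.0149 ± 0.0154 for Bmp7, 0.00808 ± 0.0101 for Tgfb3, 0.00219 ± 0.0099 for Tgfb2, -0.00407 ± 0.011 for Chrd and -0.00435 ± 0.0071 for Bmpr1b. Leaving out each library gave slopes of 0.00833 to 0.0233 for Bmp7, 0.00414 to 0.0167 for Tgfb3, -0.000918 to 0.00706 for Tgfb2, -0.00638 to 0.00391 for Chrd and -0.0108 to -0.00218 for Bmpr1b, none of them called. Leaving out each strain gave wider ranges: -0.00805 to 0.0560 for Bmp7, -0.0157 to 0.0430 for Tgfb3, -0.00565 to 0.0279 for Tgfb2, -0.00931 to 0.0189 for Chrd and -0.0217 to 0.000454 for Bmpr1b. Without NZO/HlLtJ, 3 of the 6 members had an unadjusted p under 0.05 (Bmp1, Bmp7 and Bmpr1b; 38.1% of all genes), and without the 3 wild-derived strains also 3 (Bmp1, Tgfb2 and Tgfb3; 18.1%). Over strain means, r was between -0.173 (Bmpr1b) and 0.221 (Bmp7), with exact permutation p from 0.602 to 0.904, and Spearman's correlation was between -0.238 and 0.381 (exact permutation p from 0.360 to 0.619). Without the 2 strains farthest from the median, r was 0.887 for Tgfb3, 0.776 for Chrd, 0.609 for Tgfb2, 0.315 for Bmp7 and -0.665 for Bmpr1b. Tgfb3, low in both of these strains, was called without CAST/EiJ (slope 0.0430, q = 0.00254). The 4 members of low level had slopes from -0.00234 (Tgfb1) to 0.00292 (Fst) with no limit on the mean. Limma called none of them, against 6.97% of the 28802 genes in that fit. None had an unadjusted p under 0.05, against 26.5% of those genes.

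**Figure D3:**
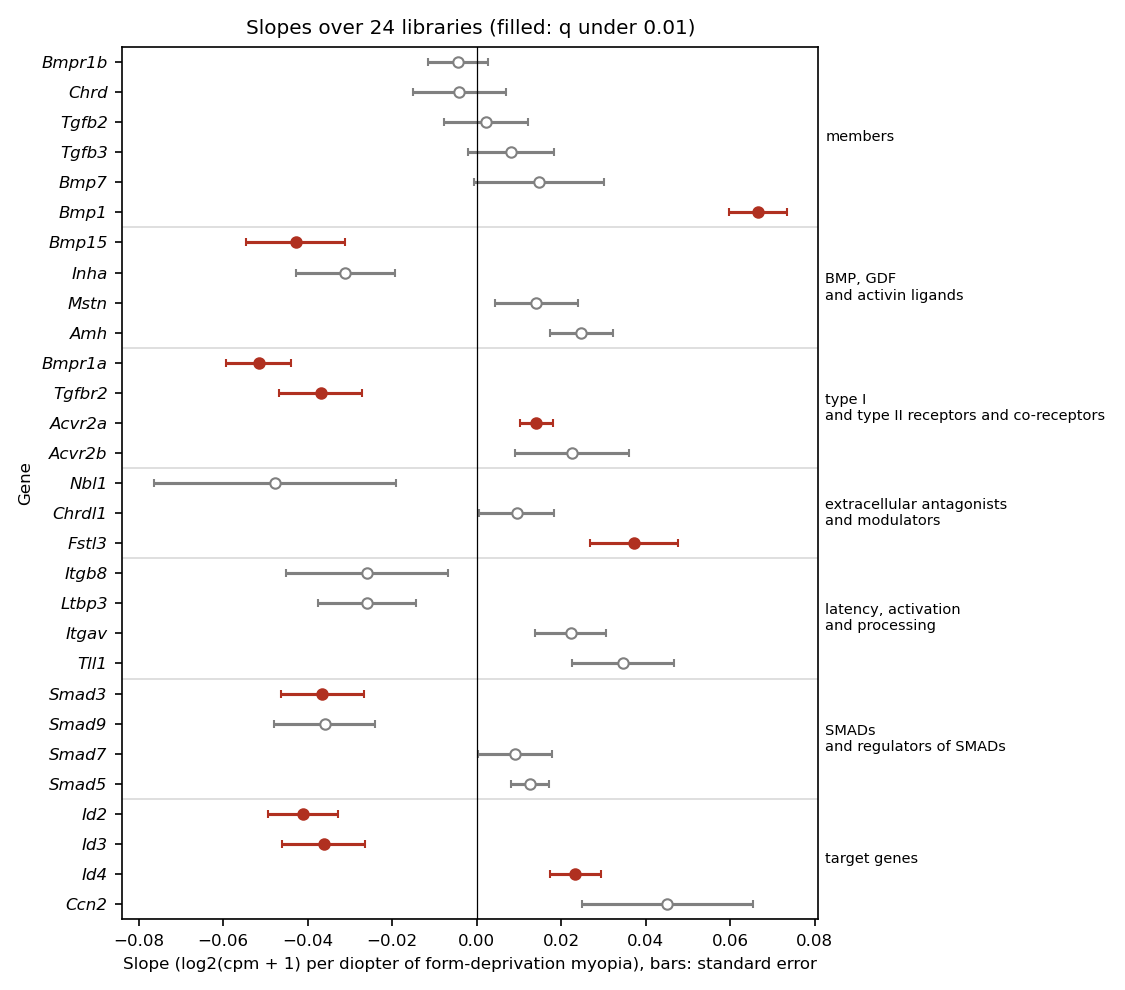
Slopes of log2(cpm + 1) per diopter of form-deprivation myopia over 24 libraries, for the 6 members tested and for genes with the largest positive and negative statistics in each of 6 lists of pathway genes. Points are slopes, bars the standard error, and filled points have q under 0.01; Bmp1 has the largest slope shown, 0.0665, and Bmpr1a the most negative, -0.0516.

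Of 101 symbols of other pathway genes in 6 lists (Ctgf and Ccn2 are names of 1 gene), 97 were in the table and 65 were tested. The F-test called 64 of them at q under 0.01 (97.2% of all genes) and 53 with the Benjamini-Hochberg p-value (70.6% of all genes). With form-deprivation myopia 9 of 65 were associated, 3 positively and 6 negatively, near the 10.9% of all genes (3.96% positive and 6.97% negative), which is also the share to set beside the counts of single lists below. With the Benjamini-Hochberg p-value 3 of the 9 were called, Bmpr1a, Id2 and Id4, and not Tgfbr2 (0.0118), Smad3 (0.0118), Id3 (0.0129), Acvr2a (0.0132), Bmp15 (0.0136) or Fstl3 (0.0147). With no limit on the mean, Tgfbr2 (q = 0.0107), Fstl3 (q = 0.0103), Bmp15 (q = 0.0119) and Id3 (q = 0.0121) were not called. The 3 libraries of a strain share 1 value of myopia, and with strain as a random effect only Bmpr1a stayed called; the others of the 9, Tgfbr2, Acvr2a, Bmp15, Fstl3, Smad3, Id2, Id3 and Id4, had q from 0.105 to 0.395. On strain means limma called 0 of the 65, with 4 at an unadjusted p under 0.05 (8.82% of all genes). The median slope of the 65 was -0.00141 against -0.00230 over all genes tested.

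In each of these 9 genes CAST/EiJ, the strain with the most myopia, had the lowest mean of the 8 strains (the 6 negative genes) or the highest (the 3 positive genes). Without CAST/EiJ limma called 0 of the 65, with 14 at an unadjusted p under 0.05 (22.7% of all genes). The number called among all genes fell from 1793 to 312. Without NZO/HlLtJ 19 were called, of 3390 genes in all, and without any 1 of the CAST/EiJ libraries 2 were called, Bmpr1a and Id2. CAST/EiJ also had the lowest strain mean in 6 of the 10 lists of cell type markers. All its libraries were below all others for ganglion cell markers (148, 149 and 145 cpm against 174 to 258 cpm) and microglia markers (4.67, 4.16 and 4.46 cpm against 4.75 to 8.97 cpm). Its means of the markers of retinal pigment epithelium (18.1 cpm), sclera and fibroblasts (9.75 cpm, of which Pdgfra 6.95 cpm), blood cells (12.3 cpm) and muscle of iris and ciliary body (2.64 cpm) were lowest with overlap. The part of these cells in the results was not tested.

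Among type I and type II receptors and co-receptors, 3 of 14 genes tested were associated. Bmpr1a, a type I receptor of BMPs related to Bmpr1b, was more abundant, at 7.95 cpm per kb against 0.740 cpm per kb. It fell with myopia by a slope of -0.0516 ± 0.0077 (q = 7.92e-05), from 58.3 cpm in A/J to 36.2 cpm in CAST/EiJ, and was the only pathway gene called with strain as a random effect (q = 0.00694; 117 of 16400 genes in all). Over strain means its r was -0.833 (exact permutation p = 0.00975; adjusted p = 0.651) and Spearman's correlation -0.786 (exact permutation p = 0.0279; adjusted p = 0.513), and r was -0.720 without the 2 strains farthest from the median. Tgfbr2, the type II receptor of TGF-β ligands, was also negative (slope -0.0369, q = 0.00613), but its slope was 0.00346 without the 3 wild-derived strains. Over strain means its r was -0.688 (exact permutation p = 0.0581), and -0.933 without the 2 strains farthest from the median. Acvr2a, a type II receptor for activins and BMPs, was positive (slope 0.0141, q = 0.00685), with strain means from 20.9 to 24.0 cpm. Its call ended with quantile normalisation (q = 0.0104) and without NZO/HlLtJ replicate 3 (q = 0.0181). The fourth gene of this list that the rule names, Acvr2b, had a slope of 0.0225 (q = 0.137).

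Of 9 other ligand genes tested, 1 was associated: Bmp15, at a mean of 1.61 cpm, with a slope of -0.0428 (q = 0.00706) and levels from 0.745 cpm in CAST/EiJ to 2.07 cpm in PWK/PhJ. Its r over strain means, -0.633, turned to 0.513 without NZO/HlLtJ and CAST/EiJ. Its call ended with quantile normalisation (q = 0.0113), with the rank of myopia (q = 0.0401) and without NZO/HlLtJ replicate 2 (q = 0.0114). Amh, Mstn and Inha had slopes of 0.0248, 0.0141 and -0.0311 (q = 0.0122, 0.181 and 0.0349). Amh was called with median-ratio scaling (q = 0.00855), quantile normalisation (q = 0.00886) and the rank of myopia (q = 0.00455), without 129S1/Svlmj replicate 3 (q = 0.00908), WSB/EiJ replicate 2 (q = 0.00878) or NZO/HlLtJ replicate 3 (q = 0.00276), and without the strain 129S1/Svlmj or NZO/HlLtJ.

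Of 10 other antagonists and modulators, Fstl3, a relative of follistatin, was associated (slope 0.0373, q = 0.00763), with 0.310 cpm in NZO/HlLtJ and 1.06 cpm in CAST/EiJ. Its r over strain means, 0.644, turned to -0.436 without these 2 strains, while it was the only other pathway gene called without the 3 wild-derived strains (slope 0.0619, q = 0.00759). The call ended without any 1 library of NZO/HlLtJ (q = 0.0137 to 0.0288) or CAST/EiJ (q = 0.0228 to 0.0279). It also ended with the rank of myopia (q = 0.0517). The same held without the strain A/J (q = 0.0142), NOD/ShiLtJ (q = 0.0103) or NZO/HlLtJ (slope 0.0239, q = 0.120). Of its exon bases 47.3% lie opposite exons of Prss57. Chrdl1 and Nbl1, also antagonists of BMPs, had slopes of 0.00948 and -0.0477 (q = 0.258 and 0.139). Nbl1 ran from 0.992 cpm in WSB/EiJ to 4.14 cpm in C57BL/6J.

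Genes for latency, activation and processing held 0 associated genes of 12 in limma, with 3 at an unadjusted p under 0.05 (31.4% of all genes). Of the 12, 10 differed between strains by the Benjamini-Hochberg p-value (70.6% of all genes). Tll1, a protease of the same family as Bmp1, had a slope of 0.0347 ± 0.012 (q = 0.0249) and ran from 3.47 cpm in NZO/HlLtJ to 6.67 cpm in PWK/PhJ. Itgav, Itgb8 and Ltbp3, which take part in the storage and activation of latent TGF-β, had slopes of 0.0222, -0.0260 and -0.0259 (q = 0.0346, 0.196 and 0.0661). Itgb8 and Ltbp3 were among the genes of this list called without NZO/HlLtJ (slopes -0.0843 and -0.0530, q = 0.00857 and 0.00964). Itgav was called without PWK/PhJ (q = 0.00161) and Tll1 without WSB/EiJ (q = 0.00441).

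Of 13 genes for SMADs and their regulators, Smad3, which carries the TGF-β and activin signal, was associated (slope -0.0365 ± 0.0098, q = 0.00614). It was at 16.3 cpm in NOD/ShiLtJ and 10 cpm in CAST/EiJ. Without the 3 wild-derived strains its slope was -0.00781 (q = 0.633). Smad9, Smad5 and Smad7 had slopes of -0.0359, 0.0126 and 0.00906 (q = 0.0202, 0.0267 and 0.264). Smad5 was called with median-ratio scaling (q = 0.00594) and quantile normalisation (q = 0.00870), and Smad9 without WSB/EiJ replicate 2 (q = 0.00916) or NZO/HlLtJ replicate 1 (q = 0.00936). Among 7 target genes tested, Id2 (slope -0.0411 ± 0.0082, q = 0.000888) and Id3 (-0.0362 ± 0.0098, q = 0.00673) were lower in strains with more myopia, and Id4 was higher (0.0234 ± 0.0060, q = 0.00467). Without the 3 wild-derived strains their slopes were -0.0180, -0.000245 and 0.00204 in this order (q = 0.363, 0.725 and 0.693). Ccn2, a target of TGF-β, had a slope of 0.0451 ± 0.020 and was not associated (q = 0.0663). Of its exon bases 23.2% lie opposite Gm15270. These 3 Id genes, which encode inhibitors of basic helix-loop-helix factors, thus did not share 1 direction.

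As a description of likeness, the 2 genes of the table with the highest Pearson's r to each tested member were taken over the 24 libraries, which share strains in groups of 3. For Bmp1 they were the lncRNA E430024P14Rik (r = 0.899) and Zfp839 (0.853), for Bmp7 Adora1 (0.829) and Pctp (0.806), and for Bmpr1b Slc30a5 (0.812) and Tst (0.808). For Tgfb2 they were Zfp951 (0.808) and Psmf1 (0.772), for Tgfb3 Rab11b (0.893) and H2-K1 (0.831), and for Chrd Shq1 (0.851) and Tafa3 (0.801). None of these is in the lists of pathway genes.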

How the data were processed

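The 24 libraries are of retina from wild type mice, and strains were taken from the sample labels. In the F-test and the comparisons of single strains, p-values set strain differences against the spread between libraries of a strain. In the regression on myopia over the 24 libraries, the residual spread also holds departures of strains from the fitted line. The permutation tests and the limma fit on strain means use the spread between strain means, not that between libraries. The authors made stranded libraries, aligned reads to GRCm38/mm10 with STAR and counted them with the RefSeq annotation in Partek Flow. Its expectation-maximization counting shares reads between genes (tool versions are not given in the sources used here). The authors deposited cpm with 0.0001 added. Reads of all strains were aligned to the same build, and the effect of strain variants on the levels was not tested. Because reads are shared, only between 88.7% and 90.6% of values under 20 reads were whole (tolerance 0.05 reads), and no test for counts was used. Depth was read from the size of 1 read; 3 reads correspond to 0.0384 to 0.0521 cpm, a limit that covers counting error only.

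The log2 of cpm plus 1 was fitted for 16400 genes (mean over libraries 0.5 cpm or more) by the functions lmFit and eBayes (with trend) of limma 3.58.1, under R 4.3.3, two-sided, at a Storey q-value under 0.01. For the F-test the q-value called 15948 genes, more than the 13690 with an unadjusted p under 0.05, because the share of unchanged genes was estimated near 0, so the Benjamini-Hochberg p-value, or for the 4 low members the unadjusted p, is given beside it. Of the 16 calls in single strains, 3 had a q-value under their unadjusted p. Strain means of form-deprivation myopia came from the supplement of the study, with the sign turned so that higher is more myopia. Exact permutation tests, gene lengths (merged exons of GENCODE M21, whose coordinates are given) and likeness used Python 3.11.15, numpy 2.4.6, scipy 1.17.1 and pandas 2.3.3. The code of the limma and permutation tests was run on simulated data with known slopes. The libraries simulated for limma had no other strain differences, so they cannot show the error rate of the regression over 24 libraries. No 2 libraries held identical values. The labels do not number replicates, which are numbered in accession order, and no batch was named in them.

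The members and lists were chosen with earlier results of these data known. The 6 pathway lists and 10 marker lists were written by hand. Fmod, Ogn, Col3a1, Dcn and Lum, of the sclera and fibroblast markers, were named after seeing the data. The other genes named are the members, the 2 genes at either end of each pathway list when it is sorted by the statistic against myopia, every pathway gene called, the 2 genes most like each tested member, and the most abundant gene of each marker list with any at 0. Of these, 1 pathway gene and 1 rod marker are not reported here; the pathway gene stays in the counts, and the rod marker was left out of its sum. The alternatives were a pseudocount of 0.1, no filter, a filter at 5 cpm, quantile normalisation, median-ratio scaling, the Benjamini-Hochberg p-value, a q-value under 0.05, leaving out each library, each strain or the 3 wild-derived strains, strain means, strain as a random effect and the rank of myopia. Leaving out the 2 libraries rich in lens markers was chosen after seeing the data.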

Additional observations from a re-analysis of the deposited data

How the results depend on the processing

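Counts stayed within 1.5 times the main count in 195 results of alternatives and moved further in 19. With a mean of at least 5 cpm, 2 members instead of 6 differed between strains, 6 calls of a member in 1 strain were made instead of 16, and 0 members (0 at an unadjusted p under 0.05 in limma) instead of 1 and 4 other pathway genes instead of 9 were associated with form-deprivation myopia; 30 other pathway genes instead of 64 differed between strains. This filter tests only 30 other pathway genes, all of which differed, and of the members Tgfb2 and Tgfb3, since Bmp1 has a mean of 4.98 cpm. Members associated with myopia numbered 2 without CAST/EiJ, and 0 with limma on strain means and with strain as a random effect (1 at an unadjusted p under 0.05 in each). Other pathway genes associated numbered 3 with the Benjamini-Hochberg p-value, 19 at a q-value under 0.05, 0 without CAST/EiJ (14 at an unadjusted p under 0.05), 3 without NOD/ShiLtJ, 19 without NZO/HlLtJ, 1 without the 3 wild-derived strains (Fstl3), 0 on strain means (4 at an unadjusted p under 0.05) and 1 with the random effect. Among all genes the numbers were 1793 in the main fit, and in the same order 1232, 3965, 312, 1340, 3390, 373, 0 and 117 (1039 with the filter at 5 cpm). Apart from the smaller sets tested with that filter, the cause of these changes was not tested. Leaving out each library gave 14 to 19 calls of a member in 1 strain, 2 to 12 other pathway genes associated with myopia, 6 members and 64 to 65 other pathway genes differing between strains, and 1 member associated. Over strain means 0 members passed an adjusted permutation p of 0.01 for Pearson's r in any alternative, a count that the design keeps near 0. With 16400 genes and 8 strains, 41 genes would have to share the smallest possible p of r.

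Among the tested members and the named pathway genes, the slopes on myopia that changed sign, with the cause not tested, were those of uncalled genes and of Tgfbr2. Without CAST/EiJ they were -0.00805 for Bmp7, -0.00118 for Tgfb2, 0.00301 for Chrd, 0.00691 for Inha, -0.0171 for Mstn, -0.000503 for Chrdl1, 0.000582 for Ltbp3 and 0.0197 for Itgb8. Without the 3 wild-derived strains they were -0.0196 for Bmp7, -0.0286 for Tgfb2, 0.0179 for Bmpr1b, 0.00346 for Tgfbr2, -0.0209 for Mstn, -0.00289 for Amh, 0.0247 for Nbl1, 0.0168 for Ltbp3 and 0.0615 for Itgb8. Without NZO/HlLtJ they were -0.0157 for Tgfb3, 0.0189 for Chrd and -0.00215 for Smad7. Tgfb2 was at -0.00268 without NOD/ShiLtJ and -0.00565 without WSB/EiJ, and Bmpr1b at 0.000454 without WSB/EiJ. With the rank of myopia Chrd was at 0.0121. Leaving out each library gave slopes of -0.000918 to 0.00706 for Tgfb2 and -0.00638 to 0.00391 for Chrd, and r over strain means of -0.173 to 0.0245 for Chrd and -0.0207 to 0.141 for Tgfb2. Depth limits Bmp2, Bmp4, Tgfb1 and Fst, at medians of 9 to 18.5 reads.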
